A study of Mus musculus with 4 samples.

Results

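The annexins described here are the 8 genes Anxa1, Anxa2, Anxa3, Anxa4, Anxa5, Anxa6, Anxa7 and Anxa11, taken as every row of those symbols in the count matrices, 8 of 27998 genes. They were followed across 4 single-cell libraries of mouse kidney and across cell classes set by marker genes. Annexins are calcium-dependent proteins that bind negatively charged phospholipids on the inner face of membranes. They take part in membrane repair, vesicle traffic and the link between membranes and the actin skeleton, and annexin A5 is widely used as a probe for exposed phosphatidylserine. Annexin A1 is also released and acts on formyl peptide receptors of leukocytes, while annexin A2 pairs with S100A10 at the cell surface, where the pair binds plasminogen and its activators. In the kidney, annexin A1 has been studied as an anti-inflammatory mediator after ischemia, and annexin A2 as a binding site for calcium oxalate crystals on tubule cells.

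Each library held GFP+ cells sorted by flow cytometry from kidneys of BAC-CluGFP mice, a transgenic line in which GFP reports clusterin (Clu) expression. The 4 groups, with 1 library each, were untreated mice and mice killed 2 days (48 hours), 7 days or 30 days after 35 min of renal ischemia followed by reperfusion (IRI). All groups carried the same transgene and the same sort, so a class holds only cells that passed the GFP+ sort. At the depth of the untreated library, a Clu transcript was counted in 28.0% of its kept cells. Of its cells gated below as proximal tubule, 12.5% had one. Passing the sort is thus not the same as having counted Clu. The matrices hold 0 rows for GFP, so the gate itself could not be checked. The sources used here do not give the number or age of the mice behind a library, and with 1 library per group no difference has a replicate check. Intervals below cover counting error only, and fewer transcripts of a gene cannot be told apart from more of the others, since levels are relative to a class's total.

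The 8 genes lie on 7 chromosomes of mouse build mm10. Anxa1 is at chr19:20373428-20390944 on the minus strand, Anxa2 at chr9:69453620-69491795 on the plus strand and Anxa3 at chr5:96793339-96845966 on the plus strand. Anxa4 is at chr6:86736840-86793584, Anxa5 at chr3:36448923-36475894 and Anxa6 at chr11:54979108-55033445, each on the minus strand. Anxa7, at chr14:20455260-20480133 on the minus strand, and Anxa11, at chr14:25842156-25886804 on the plus strand, share a chromosome. The main transcripts have 12 to 15 exons, except that of Anxa6, which has 26 and encodes a protein with a doubled annexin core. The libraries read the 3′ ends of transcripts, and 0 of the 8 genes overlap another gene of the matrices on the same strand.

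Anxa1, Anxa2 and Anxa3 were the members called higher after injury in the most classes. The promoters of the members were searched for the letters of AP-1 sites (TGANTCA) and TEAD sites (GGAATG) on both strands, in the 250 bases before each start in the RefSeq promoter table. Of the 8 members, 6 had an entry, and Anxa3 and Anxa6 had none. The Anxa2 window held 1 AP-1 match, 95 bases before the start in that table. The Anxa1 window held 1 TEAD match, 236 bases before its start there. Both starts differ from the annotated gene starts given above. The Anxa1 window (chr19:20390672-20390921) lies wholly inside the annotated gene, so its match is not upstream of the annotated start. The Anxa2 window runs to position 69453682, past the annotated start, so its match lies closer than 95 bases to that start. Among 32851 mouse promoter windows of the same length, 6.75% held the AP-1 letters and 12.6% the TEAD letters. The windows of Anxa4, Anxa5, Anxa7 and Anxa11 held neither, which says only that these letters are not in those windows. Shown are the stretches upstream of Anxa2, with the AP-1 match in capitals and up to the annotated start of the gene, and of Anxa4 and Anxa11, the members called higher in 0 classes against the same class untreated, at chr9:69453433-69453619 (plus strand), chr6:86793585-86793834 (minus strand) and chr14:25841905-25842154 (plus strand).
Anxa2: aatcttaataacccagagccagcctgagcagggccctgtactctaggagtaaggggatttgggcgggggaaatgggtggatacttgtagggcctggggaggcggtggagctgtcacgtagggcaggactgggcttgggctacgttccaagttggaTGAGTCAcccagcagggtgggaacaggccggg
Anxa4: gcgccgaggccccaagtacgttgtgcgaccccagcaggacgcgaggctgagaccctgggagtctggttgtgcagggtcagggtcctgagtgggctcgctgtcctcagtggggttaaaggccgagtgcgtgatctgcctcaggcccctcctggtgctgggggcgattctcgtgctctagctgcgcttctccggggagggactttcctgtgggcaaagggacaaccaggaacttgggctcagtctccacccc
Anxa11: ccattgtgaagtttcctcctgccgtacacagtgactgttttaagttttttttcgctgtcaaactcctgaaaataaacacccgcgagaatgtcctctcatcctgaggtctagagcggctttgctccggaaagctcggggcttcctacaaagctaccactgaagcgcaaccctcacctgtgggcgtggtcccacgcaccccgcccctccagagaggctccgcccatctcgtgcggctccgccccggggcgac

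After filters on depth, mitochondrial share and doublets, 23034 of 27230 barcodes were kept, with median depths of 5149.5, 8781.5, 23368.5 and 9027.5 UMIs (counted transcripts) in the untreated, day 2, day 7 and day 30 libraries. The libraries shared 4 to 20 barcodes per pair, at most 0.466% of the smaller one. The untreated library stood apart by its mitochondrial share (median 14.5% of UMIs, against 2.82% to 3.68% in the others), and the doublet caller marked only 6 of its 9286 barcodes, so doublets were in effect not removed there. Marker lists placed 17691 cells in a class, which gave 40 combinations of class and library with at least 50 cells. The injured proximal tubule class held 9, 22, 648 and 614 cells in the untreated, day 2, day 7 and day 30 libraries, and the proximal tubule class 2718, 71, 45 and 210. The 311 day 30 cells gated by the parietal epithelium list had a higher median level of the injured proximal tubule list than of their own (24.4 against 12.8 UMIs per cell, scaled to a common depth), so they are called here cells gated by the parietal list. In the untreated library the proximal tubule list was also above the class's own list in the thin limb, distal convoluted tubule and endothelial classes. Summed proximal tubule markers there stood at 7.55% (thin limb) to 25.1% (endothelium) of their level in the proximal tubule class, against at most 0.267% at day 2 outside the proximal tubule gates.

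The level of a gene in a class is its summed UMIs per 1000000 UMIs of that class (CPM). UMIs count molecules, so levels of different genes are compared without a length correction. A gene was measured in a comparison where it reached 20 CPM in either library and 20 UMIs in both together. It was called higher or lower where the ratio was at least 2-fold and its exact 95% counting interval excluded 1. These calls carry no p-value.

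Untreated proximal tubule cells had the lowest family level of all 40 combinations, and cells gated as injured proximal tubule had close to the highest. The 8 genes summed to 128 CPM (95% interval 124 to 133) in untreated proximal tubule, and 39.8% of that was Anxa7. They summed to 2138 CPM in injured proximal tubule at day 7 and to 2153 CPM at day 30, where Anxa2 alone held 37.4% and 39.4%. The proximal tubule gate at day 30 stood between, at 294 CPM.

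Within the day 30 library, which holds both gates, 6 of 8 annexins were called higher in injured than in other proximal tubule cells, where 20.7% of the 7193 genes tested were called higher and 9.56% lower. Anxa2 stood at 848 CPM against 60.3 CPM, a ratio of 14.1 (12.0 to 16.6). Anxa1 stood at 227 CPM against 18.8 CPM, a ratio of 12.1 (9.08 to 16.4). Anxa3 followed at 297 CPM against 26.9 CPM, a ratio of 11.1 (8.72 to 14.2). These 3 had the largest ratios of the 8 between the gates. Anxa5 was 7.08-fold higher (6.08 to 8.31; 465 against 65.7 CPM). Anxa6 was 4.54-fold higher (2.95 to 7.36) at lower levels, 38.4 against 8.45 CPM, and Anxa4 3.59-fold higher (149 against 41.5 CPM). Anxa7, first described as synexin in chromaffin granule fusion, and Anxa11, an RNA granule tether, had ratios of 1.80 and 1.71 and were not called. With 10 CPM added to both sides, the median log2 ratio of the 8 was 2.14, against 0.33 over all genes tested. Genes that set the gates include no annexin, but the classes also differ in mitochondrial share (3.96% of UMIs in the injured gate, 15.5% in the other). Rescaling by the median gene lowered each ratio by 0.42 on the log2 scale and left the same 6 calls, with Anxa3 at 8.25-fold.

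**Figure D1:**
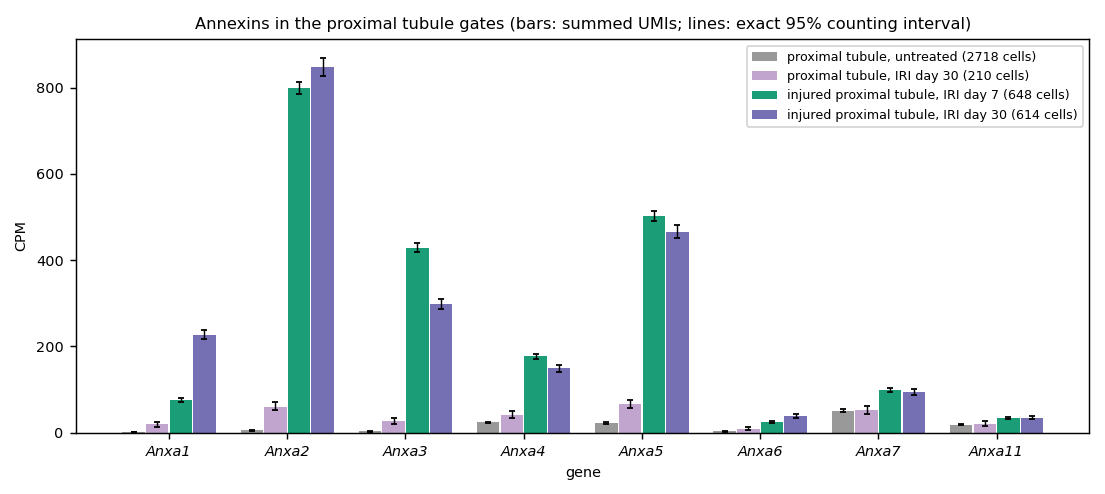
Levels of the 8 annexins (x axis) in CPM (y axis) in 4 gates: proximal tubule untreated and at day 30, and injured proximal tubule at days 7 and 30. Bars are summed UMIs of 1 library and lines the exact 95% counting interval; Anxa2 reaches 799 and 848 CPM in the injured gates against 5.56 CPM in untreated proximal tubule, while the Anxa7 bars lie between 50.9 and 97.6 CPM.

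Set against untreated proximal tubule, where 39.9% of 6881 genes tested were called higher and 11.2% lower at day 7, and 43.7% and 11.3% of 7161 at day 30, the same 6 annexins were called higher in the injured gate at both days. Anxa2 was 144-fold higher at day 7 and 152-fold at day 30, and Anxa3 145-fold and 101-fold. Anxa1 was 72.4-fold higher at day 7 and 218-fold at day 30, from only 24 UMIs in 2718 untreated cells. Mitochondrial UMIs were at 22.5% in untreated proximal tubule, against 4.13% and 3.96% in the injured gate at days 7 and 30. Rescaling by the median gene lowers each of these ratios by 0.77 (day 7) and 0.84 (day 30) on the log2 scale. The other alternative settings were not run for these comparisons. The day 30 to day 7 ratio of the injured gate was called for Anxa1 alone, at 3.01 (2.80 to 3.23; 75.5 CPM at day 7 and 227 CPM at day 30), where 2.4% of 6921 genes were called higher and 0.867% lower. Anxa3 moved the other way by less than 2-fold (429 to 297 CPM), and Anxa2 and Anxa5 differed by under 1.1-fold between those days. Anxa1 was thus the only member called between these 2 libraries.

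In cells still gated as proximal tubule, Anxa2 was called higher at day 2, with 51.0 CPM in 71 cells against 5.56 CPM untreated (9.17-fold). It was the 1 member called of 4 measured, against 16.4% of 5906 genes called higher and 4.28% lower. At day 30, 3 of 6 measured members were called higher, against 12.4% of 5779 genes (2.56% lower): Anxa2 10.8-fold (60.3 CPM), Anxa3 9.09-fold (26.9 CPM) and Anxa5 2.88-fold (65.7 against 22.8 CPM). Anxa1 stayed under the 20 CPM minimum, at 18.1 CPM at day 2 and 18.8 CPM at day 30 against 1.04 CPM. At day 2, neutrophil markers in the proximal tubule gate were at 9.75% of their library-wide level, and the same share of the library's Anxa2 and Anxa1 would be 43.6 and 18.2 CPM. They were at 1.70% of their level in neutrophils, which would be 12.7 and 6.68 CPM. At day 30, injured proximal tubule markers there were at 8.56% of their level in the injured gate, which for Anxa2, Anxa1 and Anxa3 would be 72.6, 19.4 and 25.5 CPM. Their part in the result was not tested. With 20% of each library's mean profile subtracted as free RNA, 0 counts of Anxa2 remained in the class at day 2 and untreated, and 0 of Anxa2, Anxa3 and Anxa5 at day 30 and untreated, so none of these calls could be made. With cells thinned to 2000 UMIs, Anxa3 at day 30 was not measured.

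Across all classes with 50 cells in both libraries, annexins were called higher 27 times and lower 0 times at day 2 (67 measured values, 9 classes). The counts were 7 and 0 at day 7 (16 values, 2 classes) and 17 and 1 at day 30 (62 values, 8 classes). In these comparisons 3.86% to 16.4% of all genes tested were called higher at day 2, 10.3% and 21.5% at day 7 and 5.07% to 21.9% at day 30, and 4.28% to 14.7%, 7.72% and 11.1%, and 2.56% to 10.4% were called lower. The genes did not contribute evenly. At day 2 Anxa1 was called higher in 6 of 7 classes where it was measured, Anxa2 in 7 of 9, Anxa3 in 5 of 8, Anxa7 in 5 of 9, Anxa6 in 3 of 8, Anxa5 in 1 of 9, and Anxa4 and Anxa11 in 0. At day 30 Anxa1 was called in 6 of 7, Anxa2 in 6 of 8, Anxa3 in 4 of 8 and Anxa5 in 1 of 8, while Anxa4, Anxa6, Anxa7 and Anxa11 were called in 0. Anxa6 and Anxa7 calls were thus those of day 2, apart from Anxa7 in the thick ascending limb at day 7. The comparisons share 1 untreated library, so they are not independent of each other.

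**Figure D2:**
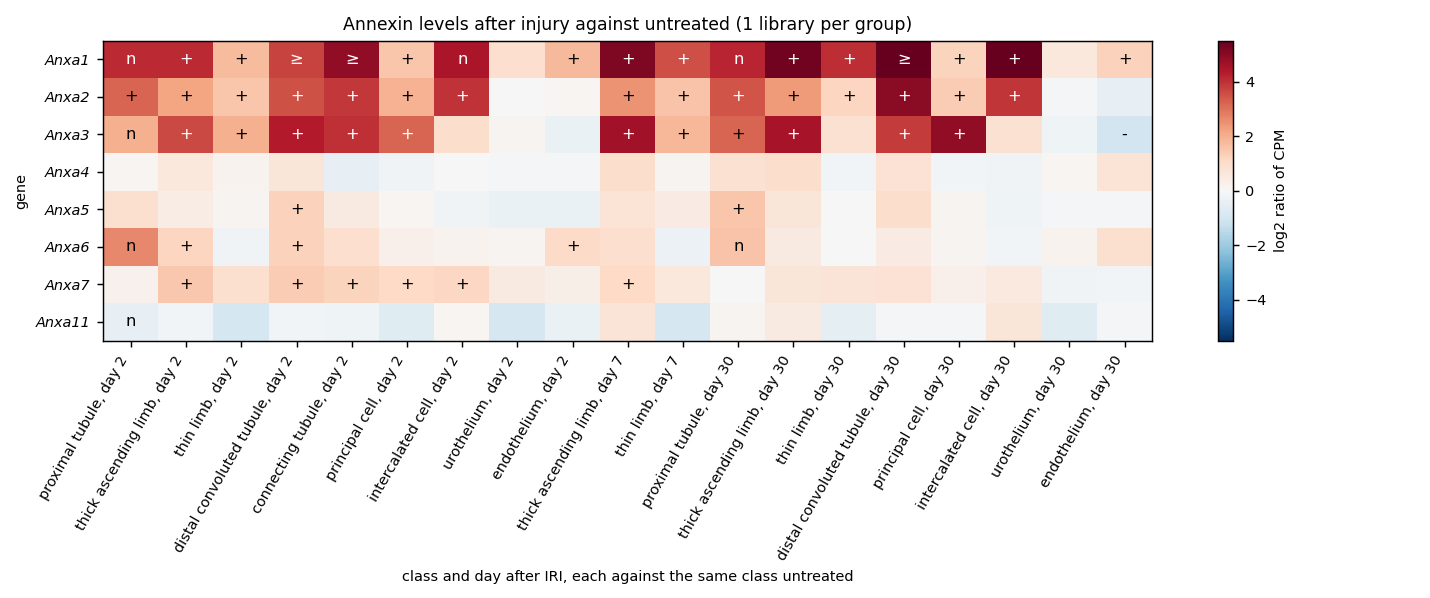
Colour gives the log2 ratio of CPM of each annexin (rows) in each class and day (columns) against the same class untreated; plus and minus mark calls higher and lower, n marks values not measured, and ≥ marks lower bounds where the untreated class had 0 UMIs. The rows of Anxa1, Anxa2 and Anxa3 carry 40 of the 51 calls higher, and the only minus is Anxa3 in endothelium at day 30.

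The thick ascending limb, the segment that reabsorbs salt through Slc12a1, had at least 50 cells in all 4 libraries, as had the thin limb. Of 8 measured annexins, 5, 4 and 3 were called higher on the 3 days, where 12.3%, 21.5% and 21.9% of all genes tested were called higher and 10.4%, 7.72% and 7.31% lower. Anxa1 went from 4.54 CPM (565 untreated cells) to 78.5, 161 and 177 CPM, ratios of 17.3, 35.4 and 39.0. Anxa3 went from 6.12 CPM to 75.3, 151 and 141 CPM, ratios of 12.3, 24.7 and 23.0. Anxa2 started higher, at 97.0 CPM, and reached 441, 533 and 498 CPM, ratios of 4.55, 5.49 and 5.14. None of the 3 untreated intervals overlapped an interval after injury. Anxa6 (37.1 to 84.6 CPM, 2.28-fold) and Anxa7 (42.9 to 121 CPM, 2.82-fold) were called at day 2, Anxa6 neither with 20% free RNA subtracted (1.98-fold) nor with mitochondrial genes left out of the totals (1.92-fold). Anxa7 was also called at day 7 (2.13-fold), but its ratio was 1.51 after rescaling by the median gene, 1.73 with mitochondrial genes left out of the totals and 1.79 with a mitochondrial limit of 20%, all short of a call. Mitochondrial UMIs in the class went from 22.7% untreated to 8.28%, 4.77% and 8.49%, and median rescaling shifted all ratios of days 7 and 30 by 0.50 and 0.47 on the log2 scale. The calls of Anxa1, Anxa2 and Anxa3 against untreated held under it. Injured proximal tubule markers in the class stood at 14.9% of their level in the injured gate at day 30, a share that would be 33.8 CPM of Anxa1, 126 CPM of Anxa2 and 44.2 CPM of Anxa3. They stood at 40.5% of their library level, a share that would be 106, 190.2 and 98.2 CPM. At day 7 the library share was 27.3%, which would be 38.0 CPM of Anxa1, 174 CPM of Anxa2 and 98.5 CPM of Anxa3. Neutrophil markers at day 2 were at 9.83% of their library level, which would be 18.4 CPM of Anxa1, 43.9 CPM of Anxa2 and 10.8 CPM of Anxa3. They were at 1.71% of their level in neutrophils, which would be 6.73, 12.8 and 0.534 CPM. What part either had in the result was not tested.

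Within the thick ascending limb after injury, Anxa1 and Anxa3 were called higher at day 7 than at day 2 (2.05-fold and 2.01-fold), against 5.27% of genes called higher and 1.61% lower. Anxa1 was also called higher at day 30 than at day 2 (2.26-fold), against 7.29% higher and 1.88% lower. After median rescaling these 3 ratios were 1.68, 1.65 and 1.88 and none was a call. Between days 7 and 30 the count was 0 of 8 (1.89% of genes higher, 0.819% lower).

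In the thin limb, 3, 3 and 2 of 8 annexins were called higher on the 3 days, where 8.9%, 10.3% and 10.6% of genes were called higher and 14.7%, 11.1% and 10.4% lower. The class's median level of its own marker list was 27.0 UMIs per cell (scaled to a common depth) untreated and 22.7, 16.5 and 12.9 after injury. At day 7 the next list, that of injured proximal tubule, was at 10.4. Cells near the gate's cut, on either side, numbered 17, 24, 51 and 72, beside 60, 72, 64 and 125 in the class. A change in which cells the class holds cannot be told apart from a change within them. Anxa2 was already at 326 CPM in 60 untreated cells, the third highest untreated level, and reached 945, 965 and 750.2 CPM. The day 7 value was the highest of any annexin in any class. Anxa3 went from 115 CPM to 442 and 415 CPM and was at 209 CPM at day 30, where it was not called (1.81-fold). Anxa1 took another course, at 11.04 CPM untreated and 36.9, 130.4 and 182 CPM at days 2, 7 and 30. Between day 2 and day 30, Anxa1 was called higher (4.92-fold, 3.42 to 7.30), against 10.0% of 7126 genes. Anxa3 was called lower over the same days (0.472, 0.405 to 0.550), against 3.77%. Between days 2 and 7 Anxa1 was the 1 annexin called (3.54-fold higher, against 6.17% of genes higher and 3.31% lower), and between days 7 and 30 the count was 0 (3.94% and 2.59%). Injured proximal tubule markers in the thin limb class stood at 29.0% of their level in the injured gate at day 30, a share that would bring 65.9 CPM of Anxa1 and 86.4 CPM of Anxa3. They stood at 79.0% of their library level, a share that would be 206 CPM of Anxa1 and 192 CPM of Anxa3. At day 7 the library share was 61.7%, which would be 86.0 CPM of Anxa1 and 223 CPM of Anxa3. The same markers were already at 742 CPM in the untreated class, against 1134 and 887 CPM at days 7 and 30, and the shares count all of it. Neutrophil markers at day 2 were at 11.9% of their library level, which would be 22.1 of the 36.9 CPM of Anxa1. They were at 2.06% of their level in neutrophils, which would be 8.12 CPM. Their part in the result was not tested. The day 2 call of Anxa1 rests on 33 UMIs against 11, and 0 remained at day 2 with 20% free RNA subtracted. With each cell thinned to 2000 UMIs, Anxa2 was no call on any of the 3 days (1.90, 1.80 and 1.53) and Anxa3 none at days 2 and 7 (1.89 and 1.79). Anxa1 was then not measured at days 2 and 7.

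The distal convoluted tubule, where thiazide-sensitive salt uptake takes place, had the most called members at day 2, with 6 of 8 higher, where 14.3% of 6381 genes were called higher and 11.1% lower. Anxa1 had 0 UMIs in 184 untreated cells. At 30.7 CPM at day 2 and 116 CPM at day 30 it was at least 13.2-fold and at least 49.6-fold higher, taking 3 counts as the limit for the untreated class. Anxa3 went from 8.56 CPM to 177 and 124 CPM (20.7-fold and 14.5-fold). Anxa2 went from 8.56 CPM to 95.9 and 265 CPM (11.2-fold and 30.9-fold), so it was Anxa3 that led at day 2 and Anxa2 at day 30. Anxa5, Anxa6 and Anxa7 were also called at day 2, at 2.44-fold, 2.39-fold and 2.64-fold, and not at day 30, when 3 of 8 were called higher against 18.9% of genes (4.99% lower). The Anxa7 ratio was 1.97 with a mitochondrial limit of 20%, and Anxa5 was short of 2-fold with cells thinned to 2000 UMIs, neither a call. Thinned, Anxa1 on both days and Anxa3 at day 30 were not measured. Neutrophil markers stood at 12.0% of their library level in the day 2 class, which for Anxa1 would be 22.4 of the 30.7 CPM and for Anxa3 13.2 of the 177 CPM. They stood at 2.09% of their level in neutrophils, which would be 8.23 CPM of Anxa1 and 0.653 CPM of Anxa3. Injured proximal tubule markers at day 30 stood at 15.6% of their level in the injured gate and 42.4% of their library level, shares that would be 35.4 and 111 CPM of Anxa1 beside the 116 CPM measured. The library share would be 199 of the 265 CPM of Anxa2 and 103 of the 124 CPM of Anxa3. Their part in the result was not tested. With 20% free RNA subtracted, 0 counts of Anxa1 remained in either library for the day 2 comparison, and Anxa2 at day 2 fell below the minimum to be measured (at least 2.84-fold).

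In the connecting tubule, compared at day 2 alone (79 cells), 4 of 8 annexins were called higher, against 13% of genes (10.4% lower). Anxa1 had 0 UMIs in 266 untreated cells and 39.0 CPM after injury, at least 29.6-fold higher. Anxa3 was 16.2-fold higher (5.71 to 92.3 CPM), Anxa2 15.0-fold higher (9.22 to 138 CPM) and Anxa7 2.31-fold higher (49.2 to 114 CPM). The untreated levels of all 3 leading genes were under 10 CPM there, as in the distal convoluted tubule next to it. Neutrophil markers in the class went from 60.6 to 2159 CPM, 10.9% of their library level. That share would be 20.3 of the 39.0 CPM of Anxa1 and 48.6 of the 138 CPM of Anxa2. They were at 1.89% of their level in neutrophils, which would be 7.45 and 14.2 CPM. Their part in the result was not tested. With 20% free RNA subtracted, Anxa1 fell below the minimum to be measured, and with cells thinned to 2000 UMIs so did Anxa1 and Anxa3, while Anxa7 was no call (1.63).

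Principal cells, which carry the water channel Aqp2, had 4 of 8 annexins called higher at day 2 and 3 of 8 at day 30, where 7.81% and 10.5% of genes were called higher and 9.38% and 5.66% lower. Anxa2 went from 100.3 CPM to 374 and 262 CPM (3.73-fold and 2.62-fold). Anxa1, at 43.7 CPM untreated the highest of any untreated tubule segment, went to 127 and 101 CPM (2.92-fold and 2.32-fold). Anxa3 differed from both: it was at 4.47 CPM untreated, 41.1 CPM at day 2 and 131 CPM at day 30, ratios of 9.21 and 29.3. The Anxa3 interval of day 30 (15.0 to 65.2) reflects 9 untreated UMIs, and at day 2 Anxa3 fell below the minimum to be measured with 20% free RNA subtracted and with cells thinned to 2000 UMIs. Anxa7 was 2.16-fold higher at day 2 and not called at day 30. Neutrophil markers in the class went from 0 to 1896 CPM at day 2, 9.56% of their library level. That share would be 17.8 CPM of Anxa1, 42.7 CPM of Anxa2 and 10.5 CPM of Anxa3. They were at 1.66% of their level in neutrophils, which would be 6.54, 12.5 and 0.519 CPM. Injured proximal tubule markers at day 30 were at 10.3% of their level in the injured gate and 28.0% of their library level. The former share would be 23.4 CPM of Anxa1, 87.3 CPM of Anxa2 and 30.6 CPM of Anxa3. The latter share would be 73.1 CPM of Anxa1, 132 CPM of Anxa2 and 67.9 CPM of Anxa3. The part of either marker list in these results was not tested. The day 30 ratio of Anxa1 was 1.83 with a gate lead of 2-fold and 1.18 with 20% free RNA subtracted, and that of Anxa2 was 1.98 under the latter, all short of a call.

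Intercalated cells, the acid-base cells of the collecting duct, had 2 of 7 measured annexins called higher at day 2 and 2 of 8 at day 30, where 10.8% and 9.46% of genes were called higher and 7.72% and 4.51% lower. Anxa2 went from 8.46 CPM in 804 untreated cells to 131 CPM at day 2 and 129 CPM at day 30, ratios of 15.5 and 15.2. Anxa1 went from 0.736 CPM (6 UMIs) to 16.4 CPM, not measured, and then to 42.5 CPM, a ratio of 57.8 (24.6 to 166). Neutrophil markers at day 2 were at 9.04% of their library level here, a share that would be 16.9 CPM of Anxa1, beside the 16.4 CPM observed, and 40.4 CPM of Anxa2. They were at 1.57% of their level in neutrophils, which would be 6.19 CPM of Anxa1 and 11.8 CPM of Anxa2. Injured proximal tubule markers at day 30 were at 16.5% of their library level, a share that would be 43.1 CPM of Anxa1, beside the 42.5 CPM measured, and 77.5 CPM of Anxa2. They were at 6.07% of their level in the injured gate, which would be 13.8 CPM of Anxa1 and 51.4 CPM of Anxa2. Their part in the result was not tested. With 20% free RNA subtracted, 0 counts of Anxa1 remained for the day 30 comparison, and with cells thinned to 2000 UMIs it was not measured. Anxa3, at 55.4 CPM untreated, lay at 108 and 99.2 CPM, ratios of 1.95 and 1.79 that missed the 2-fold rule; the first was a call (2.15) with classes taken from clusters.

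The urothelium, the stratified lining of the renal pelvis, had no calls in the main setting, with 0 of 8 annexins at day 2 and 0 of 8 at day 30, where 3.86% and 5.07% of genes were called higher and 5.72% and 4.75% lower. It began with high levels. Untreated urothelium had the highest untreated Anxa1, at 94.3 CPM, and 381 CPM of Anxa2 and 206 CPM of Anxa3. Anxa1 stood at 179 CPM at day 2, a ratio of 1.89 (1.60 to 2.25), and at 141 CPM at day 30, a ratio of 1.49. Both became calls with classes taken from clusters (2.94 and 2.11) and with cells thinned to 2000 UMIs (2.21 and 2.09). Anxa2 was at 373 and 362 CPM after injury, within 1.1-fold of the untreated level. The lowest ratio was that of Anxa11 at day 2 (0.525, 0.414 to 0.663; 96.6 to 50.7 CPM), just short of a call. The difference in ratios between urothelium and the other classes was not tested.

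**Figure D3:**
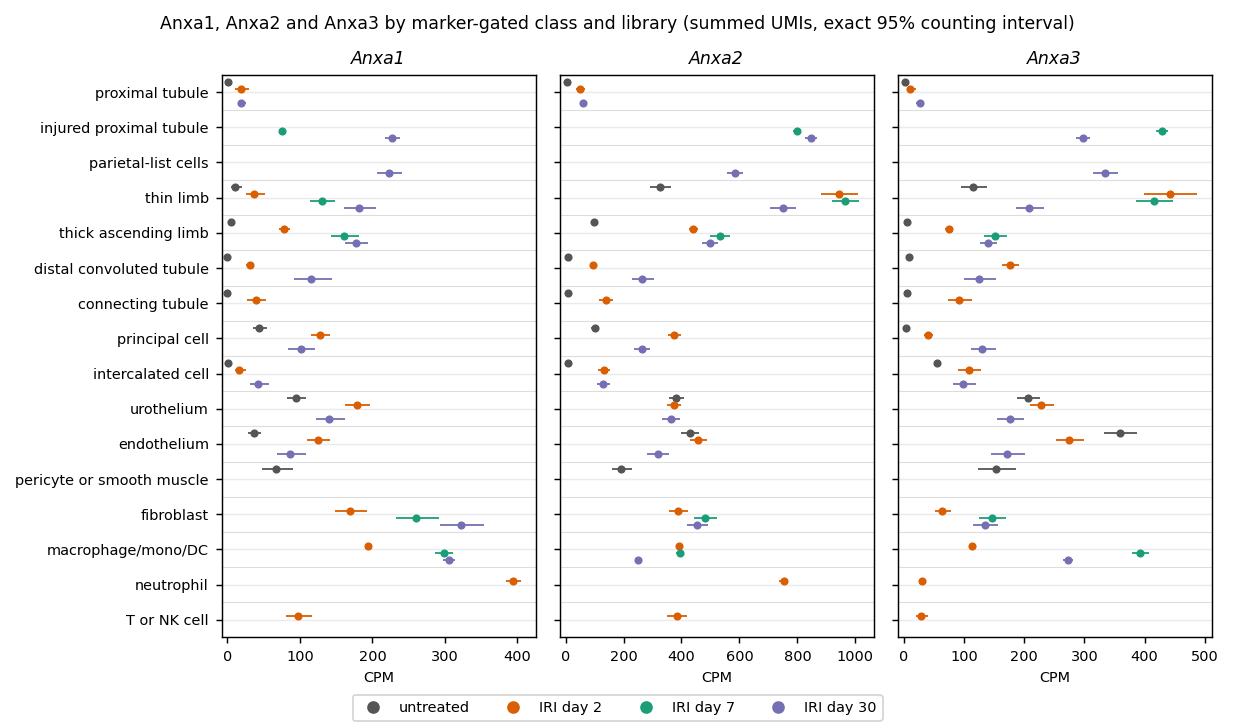
Levels in CPM (x axis) of Anxa1, Anxa2 and Anxa3 in each marker-gated class (y axis), 1 point per library with its exact 95% counting interval. Untreated points of the tubule segments lie near 0 for Anxa1 and Anxa3, apart from Anxa3 in the thin limb (115 CPM) and intercalated cells (55.4 CPM) and Anxa1 in principal cells (43.7 CPM), while the neutrophils of day 2 reach 394 CPM of Anxa1 but 31.3 CPM of Anxa3.

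Anxa4 and Anxa11 were led by the same class before and after injury and had 0 calls within a class against untreated in the main setting, although Anxa4 was called in the injured proximal tubule gate above. Anxa4, an annexin typical of epithelia, was highest in intercalated cells in the untreated, day 2 and day 30 libraries, at 386, 385 and 342 CPM. Thin limb followed at 225, 258 and 202 CPM, and neutrophils had the lowest value of all, 9.21 CPM. Its largest ratio within a class against untreated was 1.95 in the thick ascending limb (63.0 to 123 CPM at both day 7 and day 30), which became calls with 20% free RNA subtracted (2.18 and 2.25) and with classes taken from clusters (2.44 and 2.45). In distal convoluted tubule it became a call at day 2 with 20% free RNA subtracted (2.10) and at day 30 with cells thinned to 2000 UMIs (2.43). In proximal tubule at day 30 it became a call with doublets kept (2.13). In the injured gate Anxa4 was at 176 CPM at day 7 and 149 CPM at day 30 against 23.5 CPM in untreated proximal tubule, ratios of 7.52 and 6.34. Anxa11 was highest in principal cells in the same 3 libraries, at 199, 126 and 185 CPM, and next in pericytes or smooth muscle (129 CPM) and connecting tubule (117 CPM) of the untreated library. Its ratios within a class against untreated ran from 0.519 (thin limb, day 2) to 1.65 (thick ascending limb, day 7), the smallest maximum of the 8 genes. Taking out the proximal tubule RNA carried by the untreated classes brought Anxa11 in thin limb and urothelium at day 2 to 0.486 and 0.485, past the 2-fold rule. With 20% free RNA subtracted these were also calls lower (0.492 and 0.498), and Anxa11 in thick ascending limb at day 7 was a call higher (2.08). With cells thinned to 2000 UMIs, urothelium at day 2 was a call lower (0.496).

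Untreated levels of Anxa5 were 365 CPM in endothelium, 337 CPM in intercalated cells, 308 CPM in thin limb and 151 to 261 CPM in the other classes except proximal tubule, at 22.8 CPM. Only 2 of 9 neighbouring pairs in this order had a ratio whose interval excluded 1. Within a class it was called higher in 2 comparisons with untreated, distal convoluted tubule at day 2 (155 to 378 CPM, 2.44-fold) and proximal tubule at day 30 (2.88-fold). In the injured gate it was 22.0-fold higher at day 7 and 20.4-fold at day 30 than in untreated proximal tubule. The highest levels were in cells gated by the parietal list at day 30 (588 CPM), fibroblasts at day 7 (571 CPM) and injured proximal tubule at day 7 (502 CPM).

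Anxa6, which binds membranes through 2 annexin cores, was highest in T or NK cells (203 CPM) and neutrophils (193 CPM) at day 2, whose intervals overlapped. Among untreated classes it ran from 2.87 CPM in proximal tubule to 85.9 CPM in pericytes or smooth muscle. It was called higher at day 2 in thick ascending limb, distal convoluted tubule (55.2 to 132 CPM) and endothelium (31.1 to 65.3 CPM, 2.10-fold). The endothelial ratio was 1.61 with the carried proximal tubule RNA taken out, 1.83 with classes taken from clusters, 1.70 with 20% free RNA subtracted and 1.41 with cells thinned to 2000 UMIs, none a call. Anxa7 had the flattest profile: its 40 values ran from 32.3 CPM (neutrophils) to 134 CPM (intercalated cells at day 2), and 0 of 9 neighbouring pairs of untreated classes and 0 of 11 at day 30 had a ratio whose interval excluded 1. At day 2 it was called higher in 5 distal segments (2.16-fold to 2.82-fold), where its level lay between 107 and 134 CPM. Thin limb at day 2 (66.3 to 123 CPM) became a call with median rescaling (2.08) and with cells thinned to 2000 UMIs (5.21). The thinned ratio rests on 4 untreated cells with a UMI. Thinned, thin limb at day 7 (3.75) and intercalated cells at day 30 (2.58) were also calls, while connecting tubule at day 2 (1.63) was not.

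**Figure D4:**
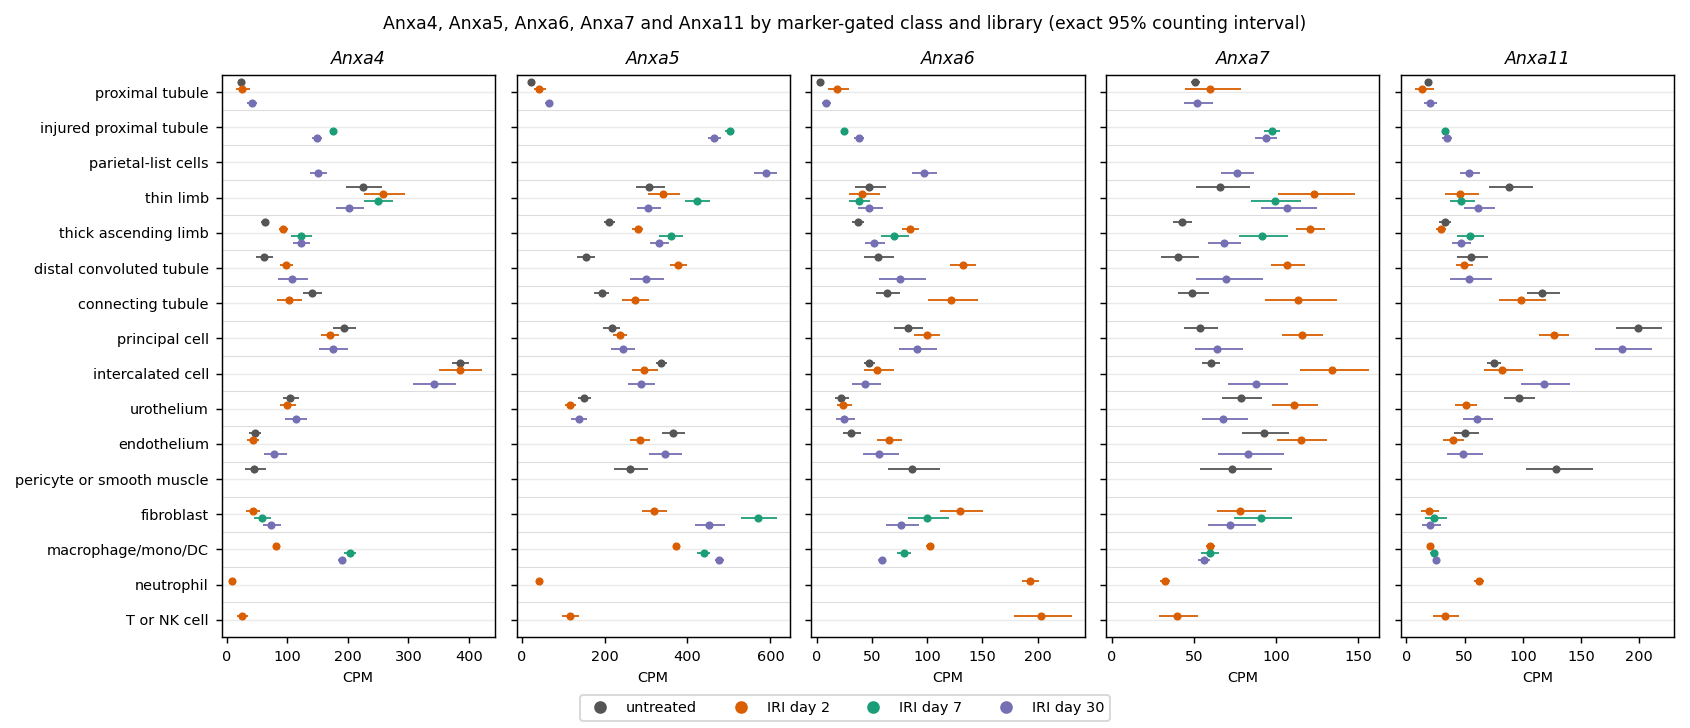
Levels in CPM (x axis) of Anxa4, Anxa5, Anxa6, Anxa7 and Anxa11 in each marker-gated class (y axis), 1 point per library with its exact 95% counting interval. Anxa4 peaks in intercalated cells (342 to 386 CPM) and Anxa11 in principal cells (126 to 199 CPM) in the 3 libraries with these classes, and Anxa7 stays between 32.3 and 134 CPM throughout.

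Endothelium began with high Anxa2 and Anxa3. In 411 untreated cells Anxa2 was at 428 CPM and Anxa3 at 359 CPM, the highest untreated level of each. At day 2, 2 of 8 annexins were called higher, against 8.64% of genes (9.32% lower): Anxa1 (36.1 to 124 CPM, 3.45-fold) and Anxa6. Anxa2 (459 CPM) and Anxa3 (275 CPM) were not called. At day 30 Anxa1 was called higher (86.6 CPM, 2.40-fold), where 10.2% of genes were, and Anxa3 lower (171 CPM, 0.476, 0.395 to 0.570), where 9.53% were. Anxa3 in endothelium was the only annexin call lower against untreated. The Anxa3 ratio in endothelium was 0.507 with classes taken from clusters and 0.532 with a gate lead of 2-fold, both short of a call. The Anxa1 ratio of day 30 was 1.83 with the carried proximal tubule RNA taken out and 1.02 with 20% free RNA subtracted, so it was no call under either. Neutrophil markers in the day 2 endothelial class reached 28.3% of their library level, a share that would be 52.9 CPM of Anxa1. They reached 4.92% of their level in neutrophils, a share that would be 19.4 CPM of Anxa1. At day 30 injured proximal tubule markers there were at 19.2% of their level in the injured gate and 52.3% of their library level, shares that would be 43.6 and 136 CPM of Anxa1 beside the 86.6 CPM measured. These markers were already at 435 CPM in the untreated class, against 587 CPM at day 30, and the shares count all of it. Their part in the result was not tested.

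Leukocyte classes reached 50 cells only after injury. The untreated library held 36 macrophages, monocytes or dendritic cells, 11 T or NK cells, 4 B cells and 3 neutrophils. The 2346 neutrophils, all from day 2, had the highest Anxa1 of any class, 394 CPM (384 to 405), and 752 CPM of Anxa2. These 2 genes made up 26.0% and 49.6% of their annexin UMIs. Their Anxa4 (9.21 CPM) and Anxa7 (32.3 CPM) were the lowest of the 40 values of each gene, and their Anxa3 (31.3 CPM) and Anxa5 (41.3 CPM) were far below the medians over the 40 (133 and 298 CPM). T or NK cells at day 2 had 383 CPM of Anxa2 and 97.3 CPM of Anxa1, with neutrophil markers at 39.8% of their library level. Macrophages, monocytes and dendritic cells, gated together, had 194 CPM of Anxa1 at day 2, 298 CPM at day 7 and 306 CPM at day 30.

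Within that myeloid class, 2 annexins were called higher at day 7 than at day 2, against 5.11% of genes called higher and 3.47% lower, and the same 2 at day 30, against 7.16% and 6.36%. Between days 7 and 30 the count was 0 (2.33% and 2.24%). Anxa3 went from 114 CPM to 393 and 273 CPM, ratios of 3.45 (3.29 to 3.63) and 2.40. Anxa4 went from 81.1 CPM to 203 and 190 CPM, ratios of 2.51 and 2.34. Anxa2 was at 391, 394 and 251 CPM and Anxa6 at 103, 78.9 and 58.7 CPM, neither called. Neutrophil markers in the class were at 2142, 147 and 71.4 CPM in the same libraries, and its own markers went from 15109 to 29900 and 26730 CPM. A change in which myeloid cells the class holds cannot be told apart from a change within them.

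Fibroblasts were gated in numbers only after injury. Anxa1 stood at 169, 260 and 322 CPM at days 2, 7 and 30, the last being the highest Anxa1 of the day 30 library. That lead over the myeloid class (306 CPM) had a ratio of 1.05, with an interval that included 1 (0.953 to 1.16). The day 30 to day 2 ratio of Anxa1 in fibroblasts was 1.91. Anxa3 was called higher at day 7 (64.0 to 146 CPM, 2.29-fold) than at day 2, where 8.75% of genes were called higher and 8.51% lower. It was also called at day 30 (135 CPM, 2.11-fold, against 10.6% and 5.93%), but at 1.91 not after median rescaling. The count between days 7 and 30 was 0 (7.06% and 3.16%). Injured proximal tubule markers in the class stood at 537, 562 and 726 CPM on the 3 days. At days 7 and 30 these were 30.6% and 64.7% of their library level. Those shares would be 110 and 157 CPM of Anxa3, beside the 146 and 135 CPM measured. Against their level in the injured gate the markers were at 15.8% and 23.8%, which would be 67.6 and 70.7 CPM of Anxa3. The part of these markers in the result was not tested. Anxa11 was low at each time, between 19.2 and 24.0 CPM.

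The makeup of the family changed with its level. In thick ascending limb, Anxa5 held 42.7% of annexin UMIs untreated and 23.1% to 23.3% after injury, while Anxa2 went from 19.6% to between 34.5% and 36.7%. In the distal convoluted tubule Anxa5 stayed first, at 40.3%, 35.3% and 27.0%. Intercalated cells were led by Anxa4 throughout (39.7%, 31.9% and 29.7%), and their family sum differed least among tubule segments, 972 CPM untreated against 1209 and 1150.3 CPM. In urothelium Anxa2 stayed first, at 33.6%, 31.5% and 33.4%, while Anxa1 went from 8.31% untreated to 15.1% at day 2 and Anxa11 from 8.51% to 4.28%. Over the 40 combinations, which share 4 libraries and their depth, Anxa1 and Anxa2 had the highest correlation between 2 members (Pearson r 0.82 on log2(CPM + 10)) and Anxa1 and Anxa11 the lowest (−0.19).

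**Figure D5:**
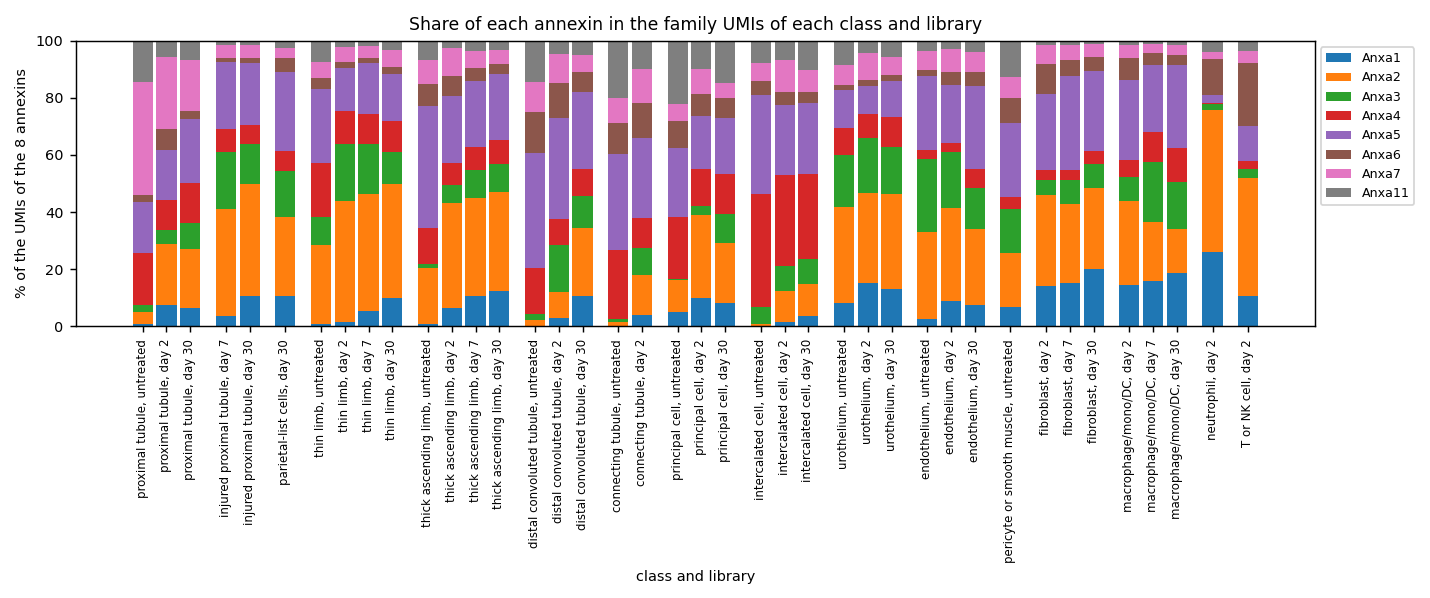
Share of each annexin (stacked colours, % on the y axis) in the annexin UMIs of each class and library (x axis). Anxa7 leads in untreated proximal tubule (39.8%), Anxa2 in injured proximal tubule (37.4% and 39.4%), Anxa4 in intercalated cells (29.7% to 39.7%) and Anxa2 with Anxa1 in neutrophils (49.6% and 26.0%).

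Single cells were compared after thinning each to 2000 UMIs, with all kept cells deep enough. In untreated proximal tubule (median depth 4078 UMIs) 75.3% of cells then had no UMI of any of the 8 genes, 1.69% had Anxa2 (3.35% before thinning) and 0.331% Anxa1. In injured proximal tubule at day 7 (24981 UMIs) 3.86% had none, 71.9% had Anxa2 (100% before thinning) and 11.9% Anxa1, and at day 30 (11100.5 UMIs) 5.37%, 69.5% and 27.9%. Anxa1 and Anxa2 were both seen in 8.80% of these cells at day 7 and 20.0% at day 30. Anxa2 was thus spread over most injured proximal tubule cells. In thick ascending limb 15.4% of untreated cells had Anxa2 and 49.3%, 55.1% and 58.1% after injury, and in neutrophils 74.8% had Anxa2 and 45.5% Anxa1. Free RNA also gives UMIs, and proximal tubule cells of the day 2 library, a class at the low end of Anxa2, had it in 7.04% of cells.

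The other annexins of the annotation, Anxa8, Anxa9, Anxa10 and Anxa13, were looked at as the rest of the family. Anxa8, an annexin of stratified epithelia, was measured in urothelium, at 90.2 CPM untreated, 144 CPM at day 2 and 88.7 CPM at day 30, with no call. It was at or under 19.6 CPM in every other class.

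The S100 proteins and AHNAK, the partners through which annexins A1, A2 and A11 form complexes, were described from a list of 6. Of these 4 or 5 were measured, and 4 of 5 were called higher in thick ascending limb at day 2, 5 of 5 in distal convoluted tubule at day 2 and 4 of 4 in injured against other proximal tubule at day 30, where 12.3%, 14.3% and 20.7% of all genes were called higher. With 10 CPM added to both sides, the median log2 ratios of the list were 1.84, 2.22 and 1.97 there, against 0.13, 0.15 and 0.33 over all genes. S100a10, the partner of Anxa2, went from 104 CPM in untreated proximal tubule to 1160.2 CPM in the injured gate at day 30, and from 170.5 to 529 CPM in thick ascending limb at day 2. S100a11, the partner of Anxa1, went from 236 to 1825 CPM in thick ascending limb at day 2 (7.72-fold). S100a6 was the S100 gene with the largest ratio in the injured gate of day 30, at 2748 against 237 CPM (11.6-fold), and over the 40 combinations it was among the genes most like Anxa2. Neutrophils, with 752 CPM of Anxa2, had 46.0 CPM of S100a10 and 4112 CPM of S100a11. In endothelium 2 of 5 were called at day 2 and 0 of 5 at day 30, against 8.64% and 10.2% of all genes.

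Fpr1 and Fpr2 encode formyl peptide receptors, to which released annexin A1 binds. None of the 5 listed receptors was measured in any comparison with untreated. In neutrophils Fpr1 stood at 149 CPM and Fpr2 at 255 CPM. The next highest class was T or NK cells of day 2, at 12.1 and 26.7 CPM, and macrophages of day 2 had 4.48 and 12.3 CPM. Neutrophil markers in these classes were at 6.92% and 1.88% of their level in neutrophils, and their part in these values was not tested.

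Of the plasminogen system, Plat, tissue plasminogen activator, was called higher in injured against other proximal tubule at day 30, at 224 against 8.83 CPM (25.4-fold, 16.9 to 40.1). In thick ascending limb and distal convoluted tubule at day 2 the list had 0 calls higher and 1 lower, where 10.4% and 11.1% of all genes were called lower, the glycolytic enzyme and plasminogen-binding protein Eno1 (0.423 and 0.407). In endothelium at day 2, Serpine2 (2.88-fold) and Plau (2.84-fold) were called higher.

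The calcium-triggered membrane repair list holds ferlins, calpains, caveolins and ESCRT-III genes that act with annexins on torn membranes. In injured against other proximal tubule at day 30, 9 of 15 measured genes were called higher and 0 lower, against 20.7% and 9.56% of all genes. The median log2 ratio, with 10 CPM added to both sides, was 0.98 against 0.33 over all genes. Capn1, a calpain subunit, was 5.54-fold higher (31.9 against 5.76 CPM) and Myof, the ferlin myoferlin, 5.31-fold higher (328 against 61.8 CPM). In thick ascending limb 4 of 15 were called at day 2, 9 of 16 at day 7 and 7 of 16 at day 30, against 12.3%, 21.5% and 21.9% of all genes. Dysf, dysferlin, had the largest ratio each time, 9.56, 9.96 and 7.19, from 4.74 CPM untreated. Thin limb, endothelium and urothelium had 0 calls from this list at day 2, where 8.9%, 8.64% and 3.86% of all genes were called higher. The list of phosphatidylserine exposure and recognition, the lipid that annexin A5 binds, gave 4 of 9 higher and 2 lower in the same day 30 proximal tubule comparison, against the same 20.7% and 9.56%. Havcr1 is on this list and is also a marker that defines the injured gate, so any call of Havcr1 there follows from the gate. Mfge8, a bridge to engulfing cells, was 4.93-fold higher and the scramblase Plscr1 4.90-fold higher, while the flippase Atp11a (0.269) and the engulfment receptor Mertk (0.130) were lower.

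The genes whose levels ran most like each member were taken over the 40 combinations among 9928 genes, by Pearson r of log2(CPM + 10). They were Hk2 (0.88), Itpripl2 (0.84) and Nfkb1 (0.83) for Anxa1, and Slc25a24 (0.85), S100a6 (0.85) and H3f3b (0.85) for Anxa2. For Anxa3 they were Plscr3, Serpinb6a and Rhob (0.83 to 0.82), and for Anxa4 Rcan3, Kif13b and Cd2ap (0.87 to 0.82). For Anxa5 they were Tmem165, Tsn and Cuedc2 (0.86 to 0.82). Anxa6 had the lowest values, with Lnpep (0.79), Iqgap1 (0.74) and Sh3bp1 (0.71). Anxa7 ran with Ctnnd1, Caml and Cops2 (0.83 to 0.78), and Anxa11 with Sort1, Scnn1b and Tle2 (0.83 to 0.81), of which Scnn1b is one of the markers that define the principal cell class.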

How the data were processed

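Sorted GFP+ kidney cells of 4 groups, 1 library each, were profiled with the 10x 3′ kit. The deposited matrices hold raw UMI counts per gene and cell barcode, made by the authors with Cell Ranger 7.0.1 against mm10, per the submitters' processing notes (the matrix header names software 3.0.1). Totals were 68193456, 98818914, 49397016 and 76638427 counts in the untreated, day 2, day 7 and day 30 libraries. The lowest barcode had 2335, 3881, 18362 and 5976 UMIs, so the day 7 library was cut at a much higher depth. The sources used here do not state the rule that chose the barcodes.

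Barcodes with at least 500 UMIs, 300 genes and at most 50% mitochondrial UMIs were kept, and doublets called by Scrublet (scanpy 1.11.5) were removed (6, 722, 10 and 646 barcodes). Each cell was scored on 19 marker lists, each marker capped at a high percentile of its level. It was placed in the class of its best list where that led the next 1.5-fold with 2 or more markers on; 5343 cells (23.2%) had no class. Markers are listed by gene and no annexin is among them; the scoring rule was set with the data at hand. UMIs were summed per class and library with at least 50 cells. Ratios of counts carry exact 95% Poisson intervals, and floors for 0 UMIs use 3 counts. The calling step was checked on simulated data. UMI intervals cover counting error only.

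All 8 annexins are named in every class. From each partner list, up to 4 genes with the largest ratio are named, and for each member the 3 genes most like it; a gene of these lists, and the counts that include it, are not reported here. Members and lists were chosen with earlier results of these data known. Promoter sequences are from RefSeq (mm10). The alternatives tried were other scalings, level filters, depth floors, mitochondrial limits, gates, clusters, free RNA subtractions and fold rules; those added with the data at hand are a 2-fold gate lead and the subtraction of proximal tubule RNA.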

Additional observations from a re-analysis of the deposited data

Results flagged for a closer look

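Anxa3 at day 30 against untreated was lower in endothelium (ratio 0.476) and higher in 4 other classes, with the largest ratio in principal cells (29.3). It stands out because the same gene was called in opposite directions under 1 contrast. The difference between the classes was not tested, since each class rests on 1 library per group.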

How the results depend on the processing

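No paired analysis was possible because each group has 1 library. The 27 calls higher at day 2 became 16 under a 3-fold rule and 5 with a common depth floor of 18362 UMIs, which left 1 of 9 comparisons, itself with 5 calls in the main setting. That floor gave no day 30 value. Calls lower at day 2 went from 0 to 3 with 20% free RNA subtracted, to 1 after thinning to 2000 UMIs and to 2 with proximal tubule RNA subtracted. The 7 calls higher at day 7 became 4 with 1 more marker in the gate and 4 with a 2-fold gate lead, each over 1 of 2 comparisons. The 17 calls higher at day 30 became 11 with 20% free RNA subtracted. The 1 call lower at day 30 became 2 with 20% free RNA subtracted and 0 with clusters, with a 3-fold rule and with a 2-fold gate lead. The cause was not tested. The one reversal was Anxa1 in thin limb at day 2, at a ratio of 0.0 with 20% free RNA subtracted, which left 0 of its counts. That subtraction also left no value for Anxa2, Anxa3 and Anxa5 in proximal tubule at day 30 and Anxa2 there at day 2, nor for Anxa1 in the distal convoluted tubule at day 2 and in intercalated cells at day 30. The 6 calls between the proximal tubule gates of day 30 held at 6 in each setting that gave a value, except 8 with 20% free RNA subtracted. Depth limits Anxa1 most: its untreated ratios rest on 0 to 24 UMIs in 6 of 9 classes.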
